A study of Mus musculus with 18 samples.

Results

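The genes for the growth factor receptors Igf1r and Insr, the receptor adaptor Irs2 and the transcription factors Foxo1, Foxo3 and Foxo4 were followed in 18 mRNA libraries of RN2 cells. The 6 genes were taken by name from a count table of 56748 gene IDs, and all 6 were among the 14985 genes with enough counts to be tested. RN2, a mouse line of acute myeloid leukemia, carries MLL-AF9 and NrasG12D, and its genotype is labelled WT in every group. Cells were transduced with lentiviral constructs, sorted on day 5 and sequenced as polyA-selected, directional libraries, 3 libraries in each of 6 groups. Cells with seBE, a base editor built for control by a small molecule, received 1 nM rapamycin or vehicle for 24 h before the sort. Cells with intact BE, the base editor with an active evoA1 deaminase, received the same 1 nM rapamycin or vehicle. The catalytic mutant is intact BE with an inactivated deaminase, named E63A in the column headers, and nCas9 is the Cas9 nickase without a deaminase. The characteristics of these last groups name vehicle for 24 h, whereas their titles name none and the treatment protocol speaks of intact BE and seBE only. No nCas9 or catalytic mutant library received rapamycin, so a rapamycin effect without an editor was not measured. Replicates are labelled as biological, without word on separate cultures or transductions, so p-values reflect no more than the spread among the libraries at hand. The promoter that drives the constructs is not given in the sources used here.

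Insulin and the insulin-like growth factors bind the receptor tyrosine kinases Insr and Igf1r, which phosphorylate IRS adaptors such as Irs2 and through them activate PI3K and the kinase AKT. AKT phosphorylates FOXO factors and holds them outside the nucleus, and when AKT is inactive the FOXO factors enter the nucleus and raise transcription of genes that include Insr and Irs2. The kinase complex mTORC1, which rapamycin inhibits, acts downstream of AKT and feeds back on IRS adaptors and receptors. In blood cells FOXO factors are known for the quiescence of stem cells, and in MLL-AF9 leukemia for holding back differentiation.

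The promoters of Igf1r and Irs2 are shown because Irs2 is a textbook FOXO target and Igf1r had the smallest p of the members in the test among the groups. Windows of 300 bases, from 250 before to 50 after the start site, came from RefSeq on build GRCm38.p6, while the counts were made on GRCm39, and 4 of the 6 members had a window. Igf1r lies at chr7:67952007-67952306 on the plus strand and Irs2 at chr8:11008880-11009179 on the minus strand, and both are written 5′ to 3′ along the gene. Capitals mark GC boxes (GGGCGG, read by Sp1-type factors) in Igf1r, and in Irs2 an E-box (CACGTG) followed directly by the reverse complement of the insulin response element (CAAAACAA, a site of FOXO binding).
Igf1r: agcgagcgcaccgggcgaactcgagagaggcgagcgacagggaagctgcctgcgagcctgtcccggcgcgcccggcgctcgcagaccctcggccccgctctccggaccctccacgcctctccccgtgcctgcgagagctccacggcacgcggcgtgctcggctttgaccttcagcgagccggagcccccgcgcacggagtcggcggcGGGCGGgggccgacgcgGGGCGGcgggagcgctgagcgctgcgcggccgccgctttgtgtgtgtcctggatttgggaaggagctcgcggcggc
Irs2: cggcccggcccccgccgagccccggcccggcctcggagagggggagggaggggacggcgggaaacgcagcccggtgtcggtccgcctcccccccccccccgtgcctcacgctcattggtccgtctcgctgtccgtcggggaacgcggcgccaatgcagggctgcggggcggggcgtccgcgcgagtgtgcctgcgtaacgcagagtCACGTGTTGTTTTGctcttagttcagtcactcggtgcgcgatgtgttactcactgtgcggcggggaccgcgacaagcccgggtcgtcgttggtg
Both strands of each window were searched. The GC boxes of Igf1r begin 43 and 26 bases before the start site, and GGGCGG in either direction occurred in 35.7% of all 32851 promoter windows of this length. In Irs2 the E-box begins 44 bases and the insulin response element 38 bases before the start site, and these motifs occurred in 7.15% and 2.51% of all windows. Irs2 also holds 1 GC box, left in lower case, that begins 85 bases before the start site. The windows of Foxo1, at chr3:52268087-52268386 on the plus strand, and Foxo3, at chr10:42276646-42276945 on the minus strand, held 5 GC boxes each and neither an E-box nor the element. Boxes overlapped in Foxo1 only. GTAAACA, the core of the FOXO site, was in none of the 4 windows and in 3.65% of all windows. GC content was 76% for Igf1r, 72% for Irs2, 61.3% for Foxo1 and 75% for Foxo3, against a median of 52.7% over all windows.

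Library totals ran from 13835979 to 23284932 counts. All 9 myeloid leukemia markers checked were expressed, led by Myb with a mean of 1192 CPM (counts scaled to a common library size by edgeR's TMM method), and their summed level was 3056 CPM in intact BE under rapamycin, the highest group, and 2642 CPM in nCas9, the lowest. Of 5 lymphocyte markers 3 had no counts in any library, as had 3 of 5 fibroblast or endothelial markers and 1 of 5 erythroid markers, and the summed level of each of these lists stayed at or under 1.23 CPM in every group. Macrophage or dendritic markers, led by Adgre1, summed to 138 CPM in intact BE under rapamycin, the highest group, and 107 CPM in seBE under vehicle, the lowest. Neutrophil markers summed to 7.11 CPM in intact BE under rapamycin, the lowest group, and 17.4 CPM in seBE under vehicle, the highest, and megakaryocyte markers lay between these values in every group. The group with the highest macrophage and the lowest neutrophil sum was the one in which Igf1r, Insr and Irs2 were highest. Those sums rested largely on single genes, Adgre1 (mean of 97.1 CPM) and Ngp (mean of 10.4 CPM). Csf1r, also on the macrophage list, averaged 20.1 CPM in that group and 20.7 CPM in the catalytic mutant. The part of these lists in the results was not tested. Fewer cells expressing a gene and less RNA per cell cannot be told apart in bulk libraries.

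Igf1r was the most abundant of the 6 transcripts and had the smallest p in a test among the groups, while by the ratio of the highest to the lowest group mean Irs2 (1.72) and Igf1r (1.71) lay close together. Per length of the gene's exons, Igf1r averaged 20.4 RPKM (reads per kilobase of exon, scaled for depth) over the 18 libraries. Foxo4 averaged 7.89 RPKM, Foxo3 7.65 RPKM and Insr 5.45 RPKM. Irs2 averaged 1.14 RPKM and Foxo1 0.593 RPKM. Counts per library were 4176 to 11790 for Igf1r and 954 to 2339 for Insr, but 71 to 220 for Irs2 and 49 to 140 for Foxo1, so the smallest differences that could be seen were wider for the last of these genes. In a test for any difference among the 6 groups (edgeR's quasi-likelihood test, Benjamini-Hochberg adjusted over all genes tested) 3 of the 6 members passed the threshold of 0.05, against a background of 31.4% of all genes. Adjusted p was 4.36e-09 for Igf1r, 0.0019 for Insr and 0.0466 for Irs2. It was 0.657 for Foxo1, 0.422 for Foxo3 and 0.793 for Foxo4.

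Igf1r, the receptor for insulin-like growth factors, stood highest in intact BE under rapamycin, where its mean was 1.71 times that of nCas9, the lowest group. It had 368, 339 and 316 CPM in seBE under rapamycin, against 335, 315 and 329 CPM in seBE under vehicle. These libraries overlapped. It had 517, 459 and 458 CPM in intact BE under rapamycin, against 338, 311 and 323 CPM in intact BE under vehicle. All 3 rapamycin libraries lay above every library of the other 5 groups. The catalytic mutant had 302, 307 and 305 CPM and nCas9 281, 269 and 290.0 CPM, and neither overlapped the other or intact BE under vehicle. From high to low, seBE under rapamycin, seBE under vehicle and intact BE under vehicle held the middle places and did not differ from their neighbours among them by more than the larger SD.

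**Figure D1:**
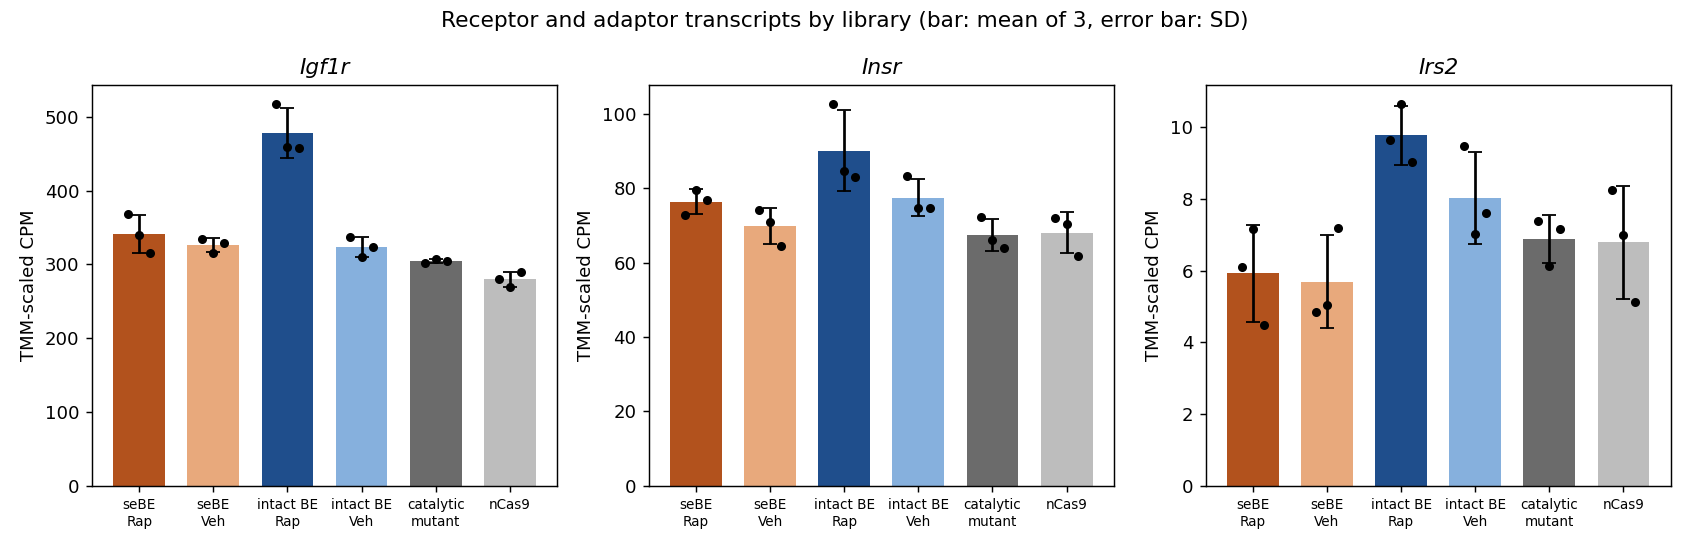
Level of Igf1r, Insr and Irs2 in TMM-scaled CPM (vertical axis, from 0) in each library (points), with the mean (bars) and SD (error bars) of 3 libraries per group along the horizontal axis. Igf1r in intact BE under rapamycin, at 458 to 517 CPM, stands above all other libraries, which reach at most 368 CPM, while the Irs2 libraries of most groups overlap.

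Insr, the insulin receptor, was also highest in intact BE under rapamycin, over a narrower range of 61.7 to 103 CPM. It had 72.9, 79.5 and 76.7 CPM in seBE under rapamycin, against 74.0, 70.9 and 64.6 CPM in seBE under vehicle. It had 103, 84.8 and 83.0 CPM in intact BE under rapamycin, against 83.2, 74.7 and 74.6 CPM in intact BE under vehicle. Each of these pairs of groups overlapped, the intact BE pair by less than 1 CPM. The catalytic mutant had 72.2, 66.2 and 63.8 CPM and nCas9 72.0, 70.4 and 61.7 CPM, which also overlapped. After removal of a trend of level on transcript length and GC content, the difference of Insr among the groups no longer passed (adjusted p = 0.443).

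Irs2, the adaptor that couples these receptors to PI3K, was low in all groups and highest in intact BE under rapamycin. It had 6.11, 7.16 and 4.49 CPM in seBE under rapamycin, against 4.85, 5.04 and 7.18 CPM in seBE under vehicle. It had 9.65, 10.6 and 9.02 CPM in intact BE under rapamycin, against 9.47, 7.02 and 7.61 CPM in intact BE under vehicle. Both pairs overlapped, but no seBE library reached the rapamycin libraries of intact BE. The catalytic mutant had 7.37, 6.12 and 7.16 CPM and nCas9 8.26, 6.98 and 5.13 CPM, again overlapping. The difference of Irs2 among the groups was close to the threshold, and it was lost without a filter on low counts (adjusted p = 0.0529), after thinning to equal depth (adjusted p = 0.0901) and, at the weakest, without replicate 2 of intact BE under rapamycin (adjusted p = 0.162). An overlapping gene on the opposite strand, 9530052E02Rik, had at most 7 counts in a library, and the strand setting of the counting is not given in the sources used here.

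No FOXO transcript passed the test for a difference among the groups. Foxo3 averaged 57.0 ± 5.75 CPM in seBE under rapamycin and 55.2 ± 3.06 CPM in seBE under vehicle (SD, n = 3 each). It averaged 63.3 ± 3.83 CPM in intact BE under rapamycin and 61.0 ± 2.74 CPM in intact BE under vehicle. The catalytic mutant was at 56.0 ± 3.56 CPM and nCas9 at 54.8 ± 10.2 CPM, where 1 library had 66.6 CPM and the others 50.1 and 47.8 CPM. Foxo4 ran from 28.8 ± 2.71 CPM in seBE under rapamycin, the highest group, to 25.2 ± 1.75 CPM in nCas9, the lowest. Foxo1 averaged 4.29 ± 0.646 CPM in the catalytic mutant, the lowest group, and 5.79 ± 1.64 CPM in nCas9, the highest. For all 3 FOXO genes, groups that were neighbours in the order of means overlapped and differed by less than the larger SD. Foxo1 overlaps Gm20402 on the opposite strand, which had at most 9 counts in a library. Foxo6, the remaining FOXO gene, had no counts in any library, which allows a mean level of up to 0.00898 CPM over the 334037951 counts of all libraries (3 counts, counting error only).

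**Figure D2:**
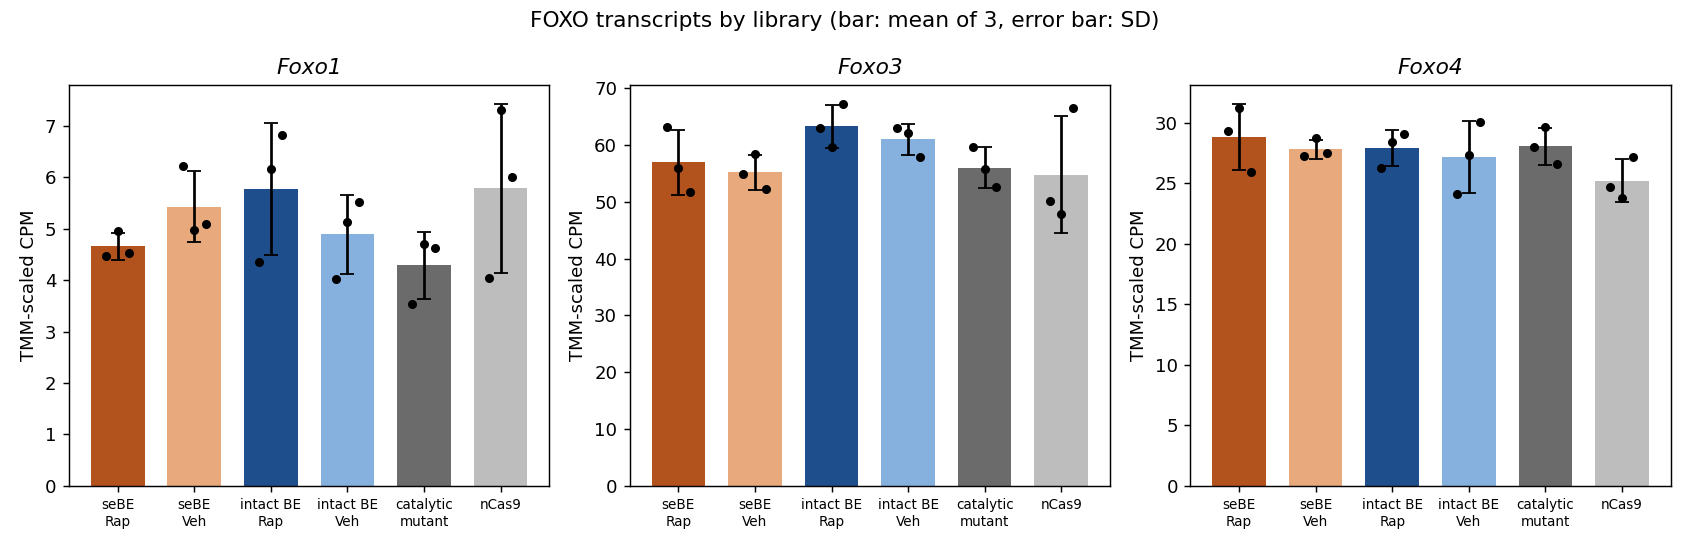
Level of Foxo1, Foxo3 and Foxo4 in TMM-scaled CPM (vertical axis, from 0) in each library (points), with the mean (bars) and SD (error bars) of 3 libraries per group along the horizontal axis. Most groups overlap, with the exceptions among the comparisons made of Foxo1 in seBE under rapamycin against vehicle and Foxo4 in seBE under vehicle against nCas9, and the widest spread is in nCas9 for Foxo1 and Foxo3.

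Rapamycin raised Igf1r in intact BE cells and had no detectable effect on it in seBE cells. Igf1r averaged 478 ± 33.9 CPM in intact BE under rapamycin and 324 ± 13.5 CPM under vehicle (SD, n = 3 each), a 1.48-fold rise. The log2 fold change was 0.56 ± 0.0694 (SE), with a 95% interval of 0.42 to 0.70 and adjusted p = 2.28e-06, which placed Igf1r at rank 10 by p among all genes tested. It was the only one of the 6 members past the threshold in this comparison, against a background of 3.32% of genes, 1.98% higher and 1.34% lower, and the only one whose groups did not overlap, against 22.3% of genes. Leaving out each library in turn gave log2 fold changes of 0.50 to 0.59, and removal of the length and GC trend gave 0.50 (adjusted p = 2.02e-07). Insr had a log2 fold change of 0.22 with an interval of 0.04 to 0.40 (adjusted p = 0.221), and Irs2 one of 0.28 with an interval of -0.18 to 0.74 (adjusted p = 0.648). The intervals were -0.29 to 0.77 for Foxo1, -0.16 to 0.26 for Foxo3 and -0.20 to 0.27 for Foxo4.

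In seBE cells Igf1r averaged 341 ± 26.2 CPM under rapamycin and 326 ± 9.97 CPM under vehicle, a log2 fold change of 0.06 with an interval of -0.08 to 0.20 (adjusted p = 0.999). None of the 6 members passed in this comparison, where edgeR called no gene at all, 493 genes had an unadjusted p under 0.05, none of them a member, and DESeq2 called 1 gene, not a member; the background was 0%. Foxo1 was the only member whose libraries did not overlap, against 8.06% of genes, with 4.47, 4.96 and 4.54 CPM under rapamycin against 6.22, 4.98 and 5.09 CPM under vehicle. Its log2 fold change of -0.22 had an interval of -0.75 to 0.31. The interval for Insr was -0.05 to 0.31 and that for Irs2 -0.42 to 0.52. Foxo3, at -0.16 to 0.26, and Foxo4, at -0.18 to 0.29, had intervals close to those in intact BE cells.

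**Figure D3:**
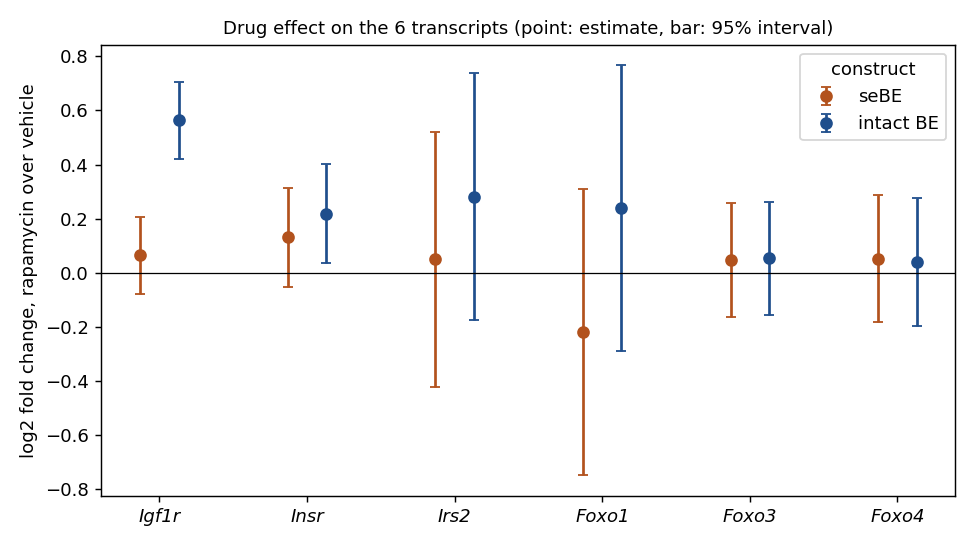
Estimated log2 fold change of rapamycin over vehicle (points, vertical axis) with its 95% interval (bars) for each of the 6 genes along the horizontal axis, in seBE and in intact BE cells. The interval of Igf1r in intact BE, 0.42 to 0.70, lies above that in seBE, -0.08 to 0.20.

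Set against each other, the drug effects on Igf1r differed between the constructs. The effect in seBE minus the effect in intact BE was -0.50 ± 0.0979 on the log2 scale, with an interval of -0.70 to -0.30 and adjusted p = 0.0129. Igf1r was 1 of 28 genes past the threshold, a background of 0.187%, and no other member passed. The call was lost, with close estimates of -0.44 to -0.50, without seBE vehicle replicate 1 (adjusted p = 0.0590), intact BE rapamycin replicate 1 (0.0917), intact BE vehicle replicate 2 (0.0773) and intact BE vehicle replicate 3 (0.0529). The intervals for the other members were -0.35 to 0.17 for Insr, -0.89 to 0.42 for Irs2, -1.21 to 0.29 for Foxo1, -0.30 to 0.29 for Foxo3 and -0.32 to 0.35 for Foxo4, so a difference as large as that of Igf1r lies inside the intervals of Irs2 and Foxo1 only.

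Under rapamycin Igf1r was lower in seBE than in intact BE, with a log2 fold change of -0.49 ± 0.0692 (SE) and adjusted p = 2.82e-05, or rank 18 by p. This comparison shares its intact BE libraries with the drug comparison above. Igf1r was the only member past the threshold, against a background of 4.69%. The groups of Igf1r, Insr and Irs2 did not overlap, 3 of 6 members against 19.6% of genes. Irs2 averaged 5.92 ± 1.35 CPM in seBE and 9.77 ± 0.819 CPM in intact BE, a log2 fold change of -0.72 ± 0.226 that missed the threshold (adjusted p = 0.0570) and passed it by DESeq2 (adjusted p = 0.0255). Insr averaged 76.4 ± 3.33 CPM in seBE and 90.1 ± 10.9 CPM in intact BE, a log2 fold change of -0.24 ± 0.0894 (adjusted p = 0.120). Removal of the length and GC trend left -0.35 for Igf1r (adjusted p = 9.08e-05) and -0.73 for Irs2 (adjusted p = 0.0527).

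Under vehicle the constructs differed less in these genes. Igf1r averaged 324 ± 13.5 CPM in intact BE and 279.8 ± 10.5 CPM in nCas9, a log2 fold change of 0.21 ± 0.0695 with adjusted p = 0.0250. It was the only member past the threshold, against a background of 23%, and with Insr 1 of 2 members whose groups did not overlap, against 38% of genes. That call ended after removal of the length and GC trend, where the log2 fold change was 0.02 (adjusted p = 0.843), and without either of intact BE vehicle replicates 1 and 3 or nCas9 replicates 1 and 2 (adjusted p of 0.0609 to 0.118). Without nCas9 replicate 3, Foxo3 also passed, with a log2 fold change of 0.32 (adjusted p = 0.0223). All 6 members have a longest transcript above the median of 2959 bases over tested genes, from 3162 bases for Foxo4 to 11409 bases for Igf1r. The slope of level on length, in log2 per doubling of length, averaged 0.0597 in intact BE under vehicle and -0.0733 in nCas9. Mitochondrially encoded genes held 1.88% of counts in intact BE under vehicle and 5.10% in nCas9, and the part of that share in the results was not tested.

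The other vehicle comparisons called none of the 6 members by edgeR. For seBE against nCas9, Igf1r averaged 326 ± 9.97 CPM in seBE and 279.8 ± 10.5 CPM in nCas9, a log2 fold change of 0.22 ± 0.0695 (adjusted p = 0.0570). It was the only member with an unadjusted p under 0.05, as had 2746 of all 14985 genes, and it passed by DESeq2 (adjusted p = 0.0183). The background was 4.56%, and the groups of Igf1r and Foxo4 did not overlap, 2 of 6 members against 22.5%. For the catalytic mutant against nCas9 no member passed by DESeq2 or had an unadjusted p under 0.05, as 2831 of all 14985 genes had. The background was 4.3%, and Igf1r, with a log2 fold change of 0.12 (interval -0.02 to 0.26), was the only member without overlap, against 21.3%. For intact BE against the catalytic mutant the background was 21%, and no member passed by DESeq2. Insr was the only member with an unadjusted p under 0.05, as had 4654 of all 14985 genes. Igf1r and Insr did not overlap there, against 37.8% of genes, with log2 fold changes of 0.09 (interval -0.05 to 0.23) and 0.20 (interval 0.02 to 0.39). For seBE against intact BE the background was 3.99%. Irs2 averaged 5.69 ± 1.29 CPM in seBE and 8.03 ± 1.28 CPM in intact BE, a log2 fold change of -0.49 (interval -0.96 to -0.02, adjusted p = 0.242). It was the only member with an unadjusted p under 0.05, as had 2790 of all 14985 genes. None passed there by DESeq2, and Insr alone did not overlap, against 29.4%. These comparisons share the nCas9, intact BE and catalytic mutant libraries.

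**Figure D4:**
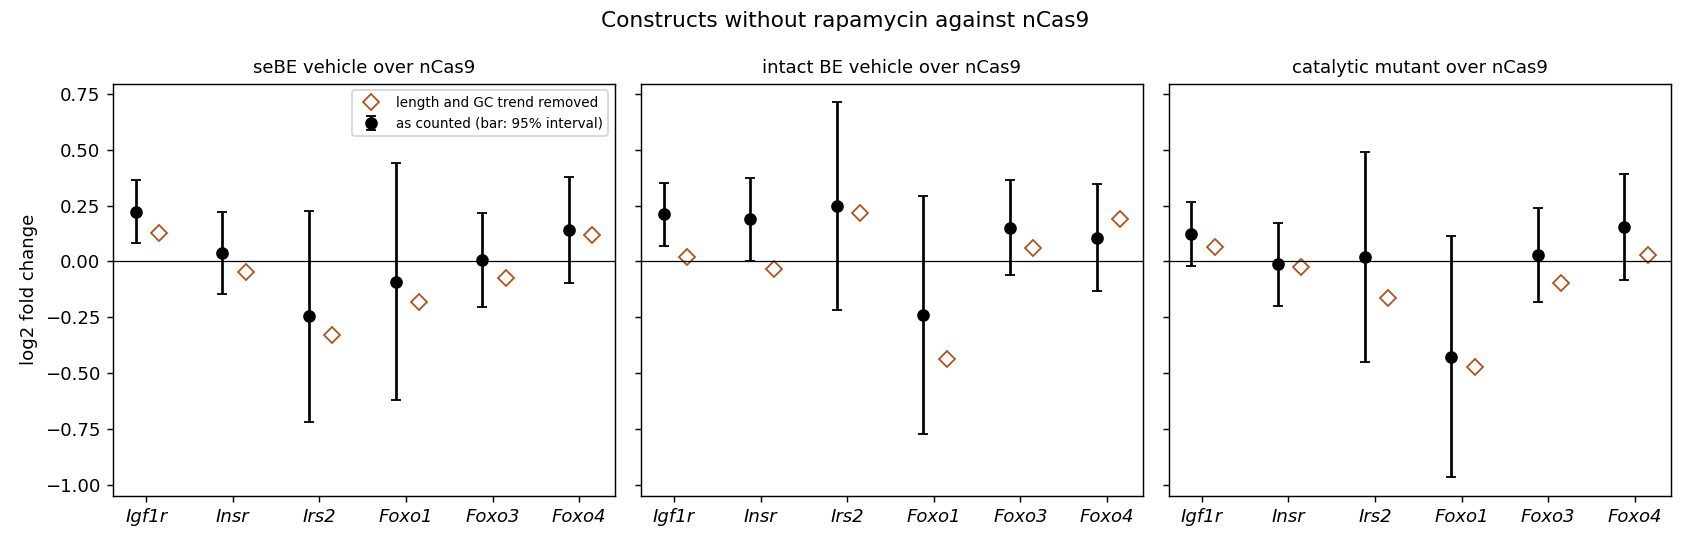
Log2 fold change over nCas9 (vertical axis) of each of the 6 genes in seBE under vehicle, intact BE under vehicle and the catalytic mutant, as counted (filled points, bars: 95% intervals) and after removal of the length and GC trend (open diamonds). For intact BE the estimate for Igf1r is 0.21 as counted and 0.02 after removal.

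The genes whose pattern over the 18 libraries was most like that of Igf1r were Irak3, Sp100 and Rad54l2, with root mean square differences of 0.0703, 0.0925 and 0.0958 in log2 CPM centred on each gene's mean, among 9040 genes with a mean log2 CPM of at least 3. Igf1r itself varied by 0.249 about its mean, and the median difference from it over these genes was 0.290. Irak3 restrains Toll-like receptor signalling, and Sp100 is a component of nuclear bodies. Nearest to Insr were Dennd5a (0.0821), Rab31 (0.0840) and Dusp6 (0.0872), where Dusp6 is a phosphatase of ERK. Nearest to Irs2 were Trf (0.230), Anxa1 (0.235) and Nt5c3 (0.239), at distances not far below the 0.342 by which Irs2 varied itself. Among the members, Foxo3 and Foxo4 were closest to each other (0.140), and Igf1r and Insr differed by 0.154. These distances describe libraries that share groups and scaling and carry no test.

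The ligands of the receptors were not detected. Igf1, Igf2, Ins1 and Ins2 had no counts in any library, nor had the binding proteins Igfbp1, Igfbp2, Igfbp3 and Igfbp5. Of the 13 ligands, decoy receptor and binding proteins listed, 2 could be tested. Igfbp4, a secreted protein that binds insulin-like growth factors, was at 103 to 123 CPM, whereas Igfbp6 was at 0.176 to 1.02 CPM. Igf2r, the decoy receptor, had at most 5 counts in a library. Irs1 and Irs4 had no counts in any library and Grb10, an adaptor that restrains these receptors, had at most 1, so Irs2 was the only IRS adaptor of the list detected. No gene of this first list passed in any of the 9 comparisons.

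Of 15 adaptors and brakes of the receptors that could be tested, 5 were higher and 1 lower in intact BE under vehicle than in nCas9, where 13.1% of all genes were called higher and 9.83% lower, with a median log2 fold change of -0.04, equal to the -0.04 over all genes. Cbl, a ubiquitin ligase that ends receptor signalling, averaged 335 ± 30.7 CPM in intact BE and 208 ± 12.6 CPM in nCas9 (adjusted p = 1.39e-06). Ptpn11, the phosphatase SHP2, averaged 182 ± 2.55 CPM in intact BE and 129 ± 8.61 CPM in nCas9 (adjusted p = 6.80e-06). Sh2b1, an adaptor that strengthens insulin receptor signalling, fell by 0.43 on the log2 scale (adjusted p = 0.00342). Both Cbl (0.38, adjusted p = 0.00749) and Ptpn11 (0.35, adjusted p = 0.00442) were also higher in seBE under vehicle than in nCas9, 2 of 15 with none lower, against 2.64% of all genes higher and 1.93% lower. Both calls were lost without seBE vehicle replicate 1, and that on Cbl also without seBE vehicle replicate 3 or nCas9 replicate 2. For rapamycin against vehicle edgeR called none of the 15 in seBE, with 0 at an unadjusted p under 0.05 and 0 by DESeq2, and none in intact BE, with 2 at an unadjusted p under 0.05. In intact BE 1 was called higher by DESeq2, with no filter, from the compared libraries alone, with the length and GC trend removed and without intact BE rapamycin replicate 3. Cbl was lower in seBE than in intact BE both under vehicle (-0.30, adjusted p = 0.0380) and under rapamycin (-0.36, adjusted p = 0.00974), 1 of 15 each time. Of all genes 2.32% were called lower and 1.68% higher under vehicle, and 2.66% lower and 2.04% higher under rapamycin. The vehicle call was lost with the length and GC trend removed, without seBE vehicle replicate 2 and without each of the intact BE vehicle libraries, and the rapamycin call with the trend removed and without seBE rapamycin replicate 2 or intact BE rapamycin replicate 1.

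PI3K, AKT and their phosphatases had 11 of 27 members higher and 0 lower in intact BE under vehicle than in nCas9, against the same shares of all genes, 13.1% higher and 9.83% lower. Their median log2 fold change was 0.23, against -0.04 over all genes. Pik3r1, the regulatory subunit of PI3K, averaged 137 ± 13.1 CPM in intact BE and 85.9 ± 8.62 CPM in nCas9 (log2 fold change 0.67, adjusted p = 4.14e-06). Pdpk1, the kinase that activates AKT, had a log2 fold change of 0.51 (adjusted p = 3.33e-05), and Phlpp2, a phosphatase that removes an activating mark from AKT, one of 0.60 (adjusted p = 0.000212). After removal of the length and GC trend the list had 9 higher and 2 lower. The number higher was 7 without intact BE vehicle replicate 3, and 1 gene was lower by DESeq2, with RLE scaling, the stricter filter, the compared libraries alone or the replicate block, and without nCas9 replicate 3. In seBE under vehicle against nCas9, 3 of 27 were higher and 0 lower, against 2.64% of all genes higher and 1.93% lower. The 3 were Pik3r1 (0.43), Pik3cd (0.30) and Akt1 (0.30), and the median was 0.13 against -0.01 over all genes. The number higher was 0 without seBE vehicle replicate 1 or nCas9 replicate 2, 1 without seBE vehicle replicate 3 or nCas9 replicate 1, and 5 by DESeq2, with the block or without nCas9 replicate 3. In the catalytic mutant against nCas9 Akt1 (0.36, adjusted p = 0.0067) and Pik3cd (0.35, adjusted p = 0.00769) were higher and none lower, against 2.24% of all genes higher and 2.06% lower. Both calls were lost with the trend removed and without nCas9 replicate 2, while the count was 4 after thinning or without nCas9 replicate 3, 5 with the block and 6 by DESeq2.

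Under rapamycin in intact BE cells the same list had 1 higher and 1 lower of 27, near the 1.98% and 1.34% of all genes, with a median of -0.02 against -0.00 over all genes. Pik3cg, a catalytic subunit abundant in leukocytes, averaged 209.7 ± 12.7 CPM under rapamycin and 167 ± 11.8 CPM under vehicle (adjusted p = 0.0191). Phlpp2 averaged 31.7 ± 3.59 CPM under rapamycin and 44.0 ± 2.67 CPM under vehicle (adjusted p = 0.0113). The call on Pik3cg was lost without intact BE rapamycin replicates 1 or 3 or vehicle replicates 2 or 3, and that on Phlpp2 without rapamycin replicate 1 or vehicle replicate 3. The number lower was 3 with the length and GC trend removed and 2 with no filter, from the compared libraries alone or without intact BE vehicle replicate 1. In seBE against intact BE under rapamycin 1 of 27 was higher, Pik3r2 (0.44), and 3 were lower, among them Pik3cg (-0.37) and Pik3cb (-0.29). Of all genes 2.04% were called higher and 2.66% lower there. The 3 became 1 from the compared libraries alone or with the trend removed and 0 without seBE rapamycin replicate 2 or intact BE rapamycin replicate 1, and Pik3r2 was lost without replicate 1 of either group.

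FOXO regulators, which include kinases, 14-3-3 proteins that hold FOXO factors in the cytoplasm, and coactivators, had 10 of 17 higher and 0 lower in intact BE under vehicle than in nCas9, against 13.1% and 9.83% of all genes, with a median of 0.26. The 10 became 5 without intact BE vehicle replicate 1 or nCas9 replicate 1 and 6 without nCas9 replicate 2. Stk4, the kinase MST1, averaged 241 ± 13.1 CPM in intact BE and 168 ± 3.70 CPM in nCas9 (adjusted p = 7.29e-06). Ywhag, a 14-3-3 protein, averaged 273 ± 5.12 CPM in intact BE and 205 ± 12.1 CPM in nCas9 (adjusted p = 7.86e-05), and the acetyltransferase Ep300 had a log2 fold change of 0.43 (adjusted p = 0.000149). These 3 genes were also the ones higher in seBE under vehicle than in nCas9, at 0.31, 0.30 and 0.28. They were 3 of 17 with none lower, against 2.64% of all genes higher and 1.93% lower. All 3 calls were lost without seBE vehicle replicates 1 or 3 or nCas9 replicate 2, and that on Ep300 also with the trend removed and without either other nCas9 library. For rapamycin against vehicle edgeR and DESeq2 called none of the 17, with 1 at an unadjusted p under 0.05 in seBE and 0 in intact BE. Ep300 was lower in seBE than in intact BE under rapamycin (-0.32, adjusted p = 0.0158), a call lost with the length and GC trend removed and without seBE rapamycin replicate 2 or intact BE rapamycin replicate 1.

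Among 30 tested FOXO target genes, rapamycin raised 2 and lowered none in intact BE cells, where 1.98% of all genes were called higher and 1.34% lower, with a median of 0.08 against -0.00 over all genes. Ccng2, an atypical cyclin tied to cell cycle exit, had 61.8, 50.5 and 55.5 CPM under rapamycin, against 38.7, 33.9 and 37.2 CPM under vehicle. It averaged 56.0 ± 5.69 CPM under rapamycin and 36.6 ± 2.45 CPM under vehicle, a log2 fold change of 0.61 ± 0.122 (adjusted p = 0.00209). Klf6, a zinc finger transcription factor, had 19.6, 19.7 and 18.1 CPM under rapamycin, against 12.4, 12.3 and 10.4 CPM under vehicle. For both genes, named because they passed in this comparison, all rapamycin libraries lay above all vehicle libraries. Of all genes 22.3% had no overlap between these groups. Klf6 averaged 19.1 ± 0.865 CPM under rapamycin and 11.7 ± 1.10 CPM under vehicle, a log2 fold change of 0.71 ± 0.166 (adjusted p = 0.0095). Of the 30 targets 11 had an unadjusted p under 0.05, as had 2153 of all 14985 genes. Targets other than Ccng2 and Klf6 did not pass after adjustment, and their estimates went in both directions. Among those that fell, Gadd45b had an interval of -0.93 to -0.17 (adjusted p = 0.105) and Sod2 one of -0.37 to -0.0092 (adjusted p = 0.313). Among those that rose, Cdkn1b, the inhibitor p27, had an interval of 0.01 to 0.37 and Bcl2l11, the death protein BIM, one of -0.02 to 0.54. The largest rise and fall were at low levels. Fbxo32 averaged 2.26 CPM under rapamycin and 0.627 CPM under vehicle (interval 0.46 to 3.19, adjusted p = 0.151). Il7r averaged 0.302 and 0.579 CPM (interval -2.92 to 1.02, adjusted p = 0.752). Txnip, a brake on glucose uptake, had one of 0.10 to 0.43 (adjusted p = 0.0623). Between 1 and 4 targets passed as higher across the alternatives, with Klf6 lost without intact BE rapamycin replicate 1 or vehicle replicate 3 and 4 called in a fit of the compared libraries alone. Without intact BE vehicle replicate 1, 1 target passed as lower.

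**Figure D5:**
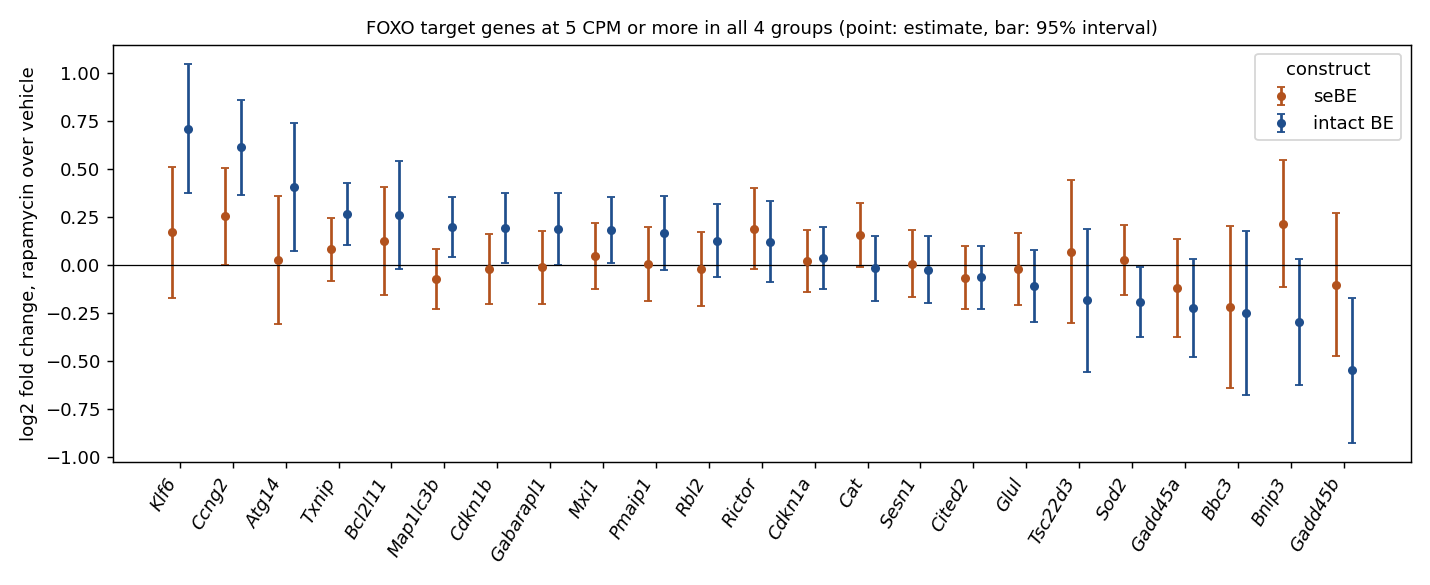
Estimated log2 fold change of rapamycin over vehicle (points, vertical axis) with its 95% interval (bars) for the 23 FOXO target genes with at least 5 CPM in all 4 groups, in seBE and in intact BE cells, ordered by the estimate in intact BE. Klf6 and Ccng2 lead in intact BE with 0.71 and 0.61, and no gene passed the threshold in seBE.

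In seBE cells neither edgeR nor DESeq2 called any of the 30 targets for rapamycin, 1 had an unadjusted p under 0.05, and the median was 0.02. Ccng2 had 29.8, 39.0 and 36.5 CPM under rapamycin, against 24.2, 30.0 and 33.9 CPM under vehicle. These libraries overlapped, though each rapamycin library lay above the vehicle library of its own number. Klf6 had 12.2, 12.1 and 15.1 CPM under rapamycin, against 11.6, 11.5 and 11.9 CPM under vehicle. These did not overlap, as was so for 8.06% of all genes. The drug effect in seBE minus that in intact BE did not pass for Ccng2 (-0.36 ± 0.174 on the log2 scale, adjusted p = 0.713) or Klf6 (-0.54 ± 0.236, adjusted p = 0.614). Under rapamycin 5 of 30 targets were lower in seBE than in intact BE and 0 higher, against 2.66% and 2.04% of all genes, with a median of -0.013 against 0.01 over all genes. They were led by Ccng2 (-0.67, adjusted p = 0.000759), Map1lc3b (-0.33, adjusted p = 0.00903), the gene of the autophagy protein LC3B, and Pmaip1 (-0.35, adjusted p = 0.0241), the gene of the death protein NOXA. The count was 1 without seBE rapamycin replicate 2, 2 without intact BE rapamycin replicate 1 or from the compared libraries alone, and 3 without seBE rapamycin replicate 1 or intact BE rapamycin replicates 2 or 3. Without rapamycin, 3 of 30 targets were higher and 1 lower in intact BE than in nCas9, no more than the 13.1% and 9.83% of all genes, led by Cited2 (0.34) and Mxi1 (0.32) among the higher, with Gadd45a, a stress response gene, the lower one (-0.47, adjusted p = 0.00527). The calls on Mxi1 and Gadd45a were lost with the length and GC trend removed, while the list then had 4 higher and 2 lower.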

How the data were processed

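The deposited table holds raw counts per gene as whole numbers. Per the submitters' processing notes, the authors trimmed reads with fastp 1.0.1, aligned them to GRCm39 with STAR 2.7.1a, used SAMtools 1.9, counted with featureCounts from Subread 2.0.3 and ran DESeq2. Not given in the sources used here are the DESeq2 version, the annotation release, the strand setting and the treatment of multi-mapping reads.

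Symbols were found for 52073 of 56748 gene IDs, and the other 4675 held 2.36% of counts. edgeR 4.0.16 in R 4.3.3 kept 14985 genes (filterByExpr, 99.93% of counts) and fitted all 18 libraries as 6 group means, with TMM scaling and robust quasi-likelihood tests. The biological coefficient of variation was 13.3%. P-values were Benjamini-Hochberg adjusted over all genes tested in each of 9 comparisons, with a threshold of 0.05. Standard errors are the log2 fold change over the square root of F, and intervals cover 95%. Log2 CPM for patterns used a prior count of 2. Exon lengths, transcript lengths and GC content came from GENCODE M21 on GRCm38, which gave a length for 97.4% of tested genes. The trend of level on length and GC content used splines of 4 degrees of freedom, taken from genes whose mean log2 CPM reached 3.

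Alternatives were DESeq2 1.42.0, its scaling in edgeR (RLE), a stricter filter (1 CPM in 3 libraries) or none, the compared libraries alone, a replicate block, removal of the trend with and without that block, thinning to equal depth and leaving out each library. Their use on the list counts and the named list genes was decided after the data were seen. For rapamycin against vehicle in seBE, same-number libraries deviated from their group means together (correlations of 0.115, 0.290 and 0.410 over genes); in no other comparison did all 3 pairs pass 0.1, and no label says what a number shares. The members, lists and tests were chosen with earlier results of these data known. Named beside the members are, from each list and comparison, up to 3 genes past the threshold in order of adjusted p, and the 3 genes closest in pattern to each member that differed among the groups. Other genes named, such as undetected ligands and FOXO targets short of the threshold, were chosen after their values were seen. G6pc1 of the FOXO target list had no match. Another gene of that list is not reported here and was left out of its counts. The procedure was tested on simulated counts.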

Additional observations from a re-analysis of the deposited data

Results flagged for a closer look

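The effect of rapamycin on Igf1r differed between the constructs by the test of the difference itself. It was 0.06 in seBE and 0.56 in intact BE on the log2 scale, a difference of -0.50 (edgeR adjusted p = 0.0129). Leaving out each library in turn gave differences of -0.56 to -0.44, with edgeR adjusted p from 0.00561 to 0.0917, so the call was not kept in every such fit.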

How the results depend on the processing

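Calls on Igf1r under rapamycin in intact BE, and in seBE against intact BE under rapamycin, were kept in every alternative run, and the direction of each call on a member was kept in all of them. The count of members called moved as follows. For seBE against nCas9 it was 1, in place of 0, by DESeq2 and with the replicate block (Igf1r). For seBE against intact BE under rapamycin it was 2, in place of 1, by DESeq2, with the block and with the trend removed and the block (Irs2). For intact BE against nCas9 it was 0, in place of 1, with the trend removed with or without the block, and 0 to 2 when libraries were left out. For the difference of drug effects it was 0 to 1, and for any difference 2 to 3, when libraries were left out. With 2 libraries left in a group, the fit takes their spread from all groups.

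Sign changes fell on estimates that passed in neither setting. Without the length and GC trend, and in brackets with the block as well, log2 values turned to -0.034 (-0.031) for Insr in intact BE against nCas9, -0.046 (-0.044) for Insr in seBE against nCas9 and -0.011 (-0.010) for Insr in intact BE against the mutant. They turned to -0.044 (-0.045) for Igf1r in intact BE against the mutant, -0.16 (-0.16) for Irs2 and -0.095 (-0.093) for Foxo3 in the mutant against nCas9, and -0.075 (-0.073) for Foxo3 in seBE against nCas9. Foxo4 turned to 0.16 (0.16) in intact BE against the mutant, -0.070 (-0.069) in seBE against intact BE under vehicle and -0.023 (-0.022) in the same pair with rapamycin, and the difference of drug effects on Foxo3 to 0.027 (0.027). Left-out libraries gave ranges that crossed 0 for Foxo1 (-0.29 to 0.11), Foxo3 (-0.081 to 0.17) and Insr (-0.029 to 0.092) in seBE against nCas9, for Foxo3 (-0.059 to 0.19), Insr (-0.080 to 0.030) and Irs2 (-0.15 to 0.19) in the mutant against nCas9, and for Foxo4 (-0.13 to 0.032) in intact BE against the mutant. The same held for Igf1r (-0.017 to 0.043) and Foxo4 (-0.046 to 0.11) in seBE against intact BE under vehicle, and for Foxo4 in the same pair with rapamycin (-0.015 to 0.12) and for rapamycin in intact BE (-0.041 to 0.12). For rapamycin in seBE the ranges were -0.034 to 0.11 for Foxo3, -0.0096 to 0.12 for Foxo4 and -0.11 to 0.26 for Irs2. For the difference of drug effects they were -0.088 to 0.057 for Foxo3, -0.066 to 0.093 for Foxo4 and -0.14 to 0.016 for Insr. Apart from the trend's removal and the left-out libraries, the cause of these moves was not tested.

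Counts over all genes moved by over 1.5 times in several settings. For the mutant against nCas9, 644 became 265 without the trend, 985 with the block, 1061 by DESeq2 and 113 to 749 with libraries left out. For seBE against nCas9, 684 became 1064 by DESeq2, 1089 with the block, 1339 with trend removal and block, and 116 to 908. For seBE against intact BE under vehicle, 598 became 334 without the trend, 945 with no filter, 1115 by DESeq2, 1173 with the block, 1790 from the compared libraries alone, and 47 to 514. Under rapamycin, 703 became 337 from the compared libraries alone, 1085 with the block, 1195 with trend removal and block, and 257 to 1129. For intact BE against the mutant, 3141 became 1663 without the trend and 1696 to 3017. For rapamycin in intact BE, 497 became 849 from the compared libraries alone, 1047 with trend removal and block, and 216 to 401. For the difference of drug effects, 28 became 62 without the trend, 65 with the block, 66 with no filter, 76 by DESeq2, 169 with trend removal and block, and 11 to 54. The share of calls in the higher direction for that difference, 39.3%, became 27.6% of the calls made after thinning and 22.7% to 44% with libraries left out, and for seBE against intact BE under vehicle 42.0% became 14.3% to 44%. Of 45 same-number pairs 25 had deviations correlated over 0.1 (median 0.109, range -0.421 to 0.410). Compared with libraries of other groups, 14 of 18 libraries were most like one of their own number. Replicate numbers thus held some shared variation, unevenly over the groups, which the main fit did not model. In rapamycin against vehicle in seBE, where all 3 pairs were correlated over 0.1, the block changed no call, with 0 genes called in either fit. Irs2 and Foxo1, the members with the fewest counts, had the widest intervals, and where an interval included 0 a difference inside it was not excluded.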

Other observations

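Receptors for myeloid growth factors and cytokines, which feed the same PI3K and AKT pathway, moved in both directions between the constructs. Of 11 tested, 2 were higher and 3 lower in intact BE under vehicle than in nCas9 by edgeR, where 13.1% of all genes were called higher and 9.83% lower, and the number lower was 1 without intact BE vehicle replicate 1 or nCas9 replicates 1 or 2. Il3ra, the interleukin-3 receptor subunit, averaged 27.9 ± 3.47 CPM in intact BE and 52.7 ± 5.76 CPM in nCas9 (SD, n = 3 each, adjusted p = 5.96e-06). Kit, the receptor of stem cell factor, averaged 149 ± 5.34 CPM in intact BE and 105 ± 10.6 CPM in nCas9 (adjusted p = 1.67e-05). After removal of the length and GC trend 1 was higher and 1 lower.

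Under rapamycin in intact BE cells 2 of the 11 were higher and 0 lower, against 1.98% and 1.34% of all genes. Both calls were lost without intact BE rapamycin replicate 1, and that on Kit also without rapamycin replicate 3 or vehicle replicates 2 or 3, while 4 were called with no filter or from the compared libraries alone. Csf2rb, the subunit shared by receptors for interleukin-3 and GM-CSF, had 279, 267 and 246 CPM under rapamycin, against 213, 208 and 206 CPM under vehicle (log2 fold change 0.34, adjusted p = 0.0043). Kit had 188, 176 and 192 CPM under rapamycin, against 154, 144 and 149.8 CPM under vehicle (0.31, adjusted p = 0.0176). Neither gene, both named because they passed here, overlapped between these groups, as was so for 22.3% of all genes. In seBE cells edgeR and DESeq2 called none of the 11 under rapamycin, with 1 at an unadjusted p under 0.05. There Kit had 128, 129 and 146 CPM under rapamycin, against 124, 112 and 121 CPM under vehicle (log2 fold change 0.18). These did not overlap, as was so for 8.06% of all genes, while those of Csf2rb did (0.0058). The difference between the drug effects did not pass for Kit (adjusted p = 0.905) or Csf2rb (adjusted p = 0.284).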
